A study of Homo sapiens with 2 samples.

Results

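The 10 genes described here, DUSP1, DUSP4, DUSP5, DUSP6, DUSP7, DUSP8, SPRY1, SPRY2, SPRY4 and SPRED1, are feedback inhibitors of the MAP kinase pathways, and were chosen by name among the 23595 genes of the array. They were read by 17 of the 45033 array features, each a summary of 3 probes for a transcript. The RNA came from TE-1, an established line of human squamous carcinoma of the oesophagus. The control vector group was transfected with the empty plasmid pcDNA3.1 and the PAX2 vector group with the same plasmid carrying PAX2, a paired-box transcription factor of kidney development, and RNA was extracted 24 h later in both. Each group held 1 single-colour array, so the differences carry no replicate check and no p-value, and precision is limited by the number of arrays.

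MAP kinases relay signals from growth factor receptors and from stress to the nucleus, and the cell limits them by genes that the pathway itself turns on. The dual-specificity phosphatases (DUSP) remove phosphate from both the threonine and the tyrosine of the activation loop of ERK, p38 or JNK. Sprouty proteins and their SPRED relatives act further up, between the receptor, RAS and RAF. Since ERK signalling induces many of these genes, their mRNA levels are widely used as a readout of pathway output, also in squamous epithelium.

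PAX2 itself had 1 feature, with an intensity of 22.2 on the control vector array and 22.1 on the PAX2 vector array, close to the 5000 random-sequence probes that stand for background (20.6 and 19.3). The overexpression was therefore not visible on the array, and with no probe positions at hand the labels could not be checked. Of 5 squamous markers KRT5, KRT14 and SFN were measured while TP63 and KRT6A were no brighter than silent genes. Of 4 simple epithelial markers the keratins KRT8 and KRT18 were bright, and EPCAM and CDH1 were not measured. These 5 measured epithelial markers were all above 0 on the log2 difference scale, from 0.17 for KRT14 to 0.72 for KRT5. The KRT5 value is more than the mean difference of any of the 10 genes. Of the epithelial markers not measured, TP63 had a computed difference of 0.15, while KRT6A (-0.40), EPCAM (-0.30) and CDH1 (-0.17) were below 0. None of 5 leukocyte and none of 4 endothelial markers was measured, and 2 of 6 fibroblast markers were, COL1A1 (log2 difference 0.46) and DCN (0.09). The summed intensity of all 6 fibroblast markers was 1515 on the control vector array and 1919 on the PAX2 vector array. The summed intensity of the 5 leukocyte markers was 200.0 and 199, and that of the 4 endothelial markers 130 and 175. Their part in the differences below was not tested. In RNA of a whole culture, fewer cells of a kind and less RNA per cell cannot be told apart, and the labels do not give the share of cells that took up the plasmid.

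Among the 10 genes no mean difference reached 2-fold, and the genes did not share a direction. A gene was treated as measured if its mean log2 intensity reached the median of all features (7.68 on the control vector array, 7.71 on the PAX2 vector array) on at least 1 array. By this filter 8 of the 10 genes were measured, and DUSP6 and SPRED1 were not. Differences are log2 intensity of the PAX2 vector array minus that of the control vector array. DUSP1, DUSP7, DUSP8 and SPRY2 were above 0 and DUSP4, DUSP5, SPRY1 and SPRY4 below 0. The computed differences ran from -0.64 for SPRY4, whose level on the PAX2 vector array was no brighter than silent genes, to 0.45 for DUSP7, with a median of -0.05 over the 8 measured genes. The median over all 11628 measured genes was 0.02. None of the 8 was at least 2-fold different, as were 2.29% of all measured genes, and by its computed value 1 was at least 1.5-fold different (SPRY4, lower; its bound, given below, stays under 1.5-fold), as were 7.72% of all measured genes in either direction and 3.22% in the lower direction.

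**Figure D1:**
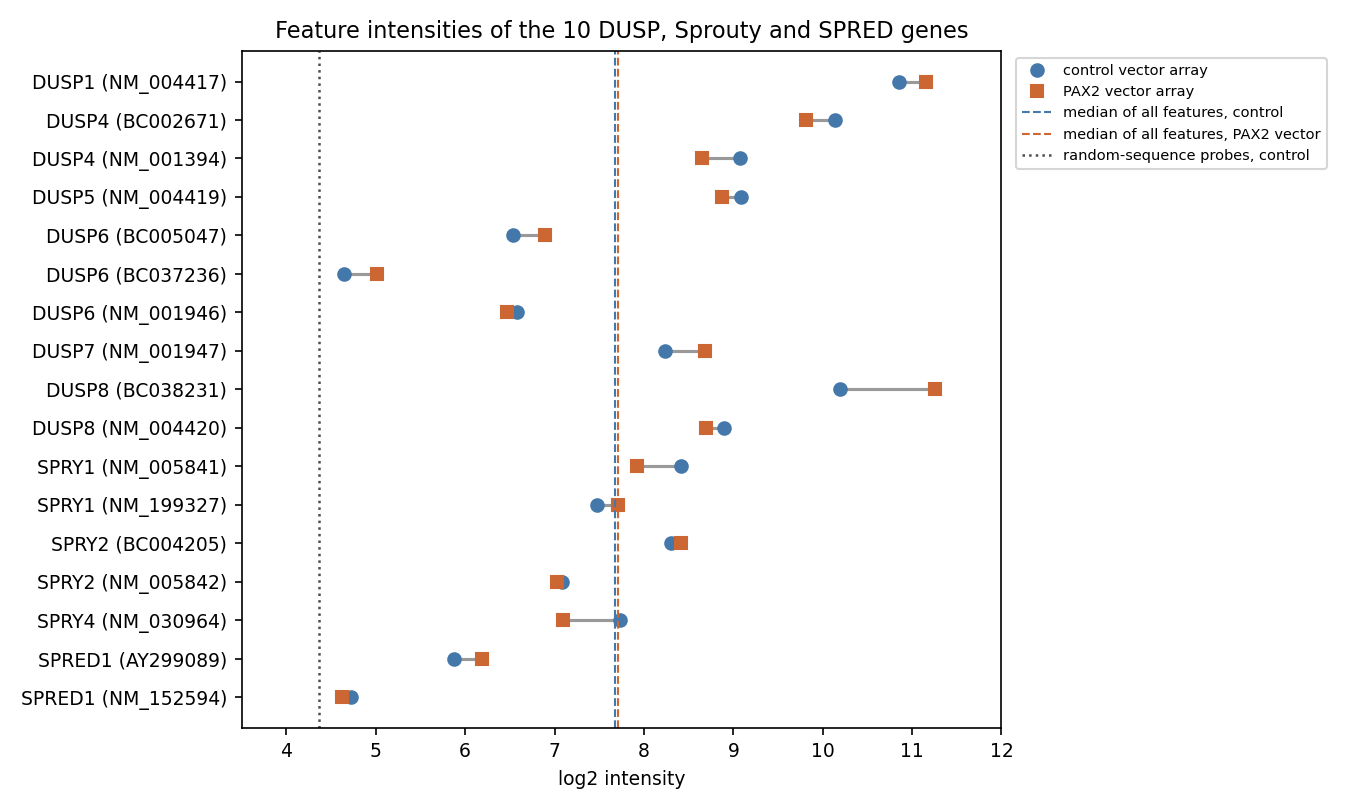
Log2 intensity of the 17 features of the 10 genes on the control vector array (circles) and the PAX2 vector array (squares), 1 row per feature. The dashed lines are the medians of all features (7.68 and 7.71) and the dotted line is the random-sequence level of the control vector array (4.36). The features of DUSP1, DUSP4, DUSP5, DUSP7 and DUSP8 lie right of the dashed lines on both arrays, and those of DUSP6 and SPRED1 lie left of them. Positions of different features should not be ranked, since each has its own probes.

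Of the 10 genes, DUSP1, DUSP4 and DUSP5 are the inducible phosphatases of the nucleus. DUSP1 (MKP-1), an immediate early gene that acts on p38, JNK and ERK, had intensities of 1852 on the control vector array and 2289 on the PAX2 vector array. This is a log2 difference of 0.31, or 1.24-fold higher, in its 1 feature (NM_004417, HG18 chromosome 5, 172127706 to 172130809). The value was slightly larger than the spread of equally bright features, since the SD of the difference was 0.28 in that decile of brightness.

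DUSP4 (MKP-2), a nuclear phosphatase of ERK and JNK, was lower on the PAX2 vector array in both of its features. Intensities were 1125 and 896 for BC002671 (HG18 chromosome 8, 29249982 to 29263872) and 538 and 402 for NM_001394 (29249538 to 29264104), on the control and the PAX2 vector array. The log2 differences of -0.33 and -0.42 gave a mean of -0.37, or 1.30-fold lower. DUSP4 was the only one of the 6 genes with several features in which every feature pointed the same way. Opposite signs were found in 41.5% of the 3898 measured genes with 2 features. The differences of the DUSP4 features were 0.09 apart on the log2 scale, and 80.0% of these genes had a gap at least that wide.

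DUSP5, which holds and inactivates ERK in the nucleus, had intensities of 543 and 467 in its 1 feature (NM_004419, HG18 chromosome 10, 112247614 to 112261292). Its log2 difference was -0.22, smaller than the SD of 0.38 among equally bright features. Thus DUSP4 and DUSP5 were lower and DUSP1 higher on the PAX2 vector array.

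Of the 10 genes, DUSP6 and DUSP7 are the cytoplasmic, ERK-selective phosphatases. DUSP6 (MKP-3), the member most often used as an ERK readout, was dim in TE-1 cells on both arrays. BC005047 had intensities of 93.0 and 119, BC037236 of 25.0 and 32.3, and NM_001946 of 95.3 and 88.4 (HG18 chromosome 12, 88265967 to 88270427 for the last). All 3 features lay in the range of silent genes, given by the 95th percentile of 376 olfactory receptor genes (log2 7.07 on the control vector array and 7.15 on the PAX2 vector array), so no fold is given. BC037236 was 1.21 and 1.68 times as bright as the random-sequence probes. The differences of the 3 features, 0.36, 0.37 and -0.11, were all below the SD of equally dim features, which was 0.69 to 0.90 in the deciles that held them.

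DUSP7 (PYST2) had intensities of 301 and 412 in its 1 feature (NM_001947, HG18 chromosome 3, 52059870 to 52065269). Its difference of 0.45, 1.37-fold higher on the PAX2 vector array, was the highest mean of the 10 genes; DUSP8 was higher with an offset of 64 before the log (0.42 against 0.38) and in its brightest feature (1.07). It was below the SD of 0.50 among equally bright features.

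DUSP8 (HVH-5), a phosphatase directed at JNK and p38, held the only feature of the 17 that differed at least 2-fold. BC038231 (HG18 chromosome 11, 1534192 to 1549720) had intensities of 1170 on the control vector array and 2449 on the PAX2 vector array, a log2 difference of 1.07 or 2.09-fold. The second feature, NM_004420 (1533958 to 1549726), had 477 and 413, a difference of -0.21. The features thus pointed opposite ways, and the mean over both was 0.43. Among all features 9.90% differed at least 2-fold in either direction, and among the 23459 measured features 3.22% did. The BC038231 value was more than the SD of 0.32 of its decile of brightness.

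The gap of 1.27 between the features of DUSP8 was wide for this array: 68 of the 3898 measured genes with 2 features (1.74%) had a gap at least as large, and the median gap was 0.25. Opposite signs were common, in 41.5% of these genes. Both annotated spans cover nearly the same stretch of the genome. No positions of the 3 probes of each feature were at hand, so it was not tested whether the features read different transcripts.

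**Figure D2:**
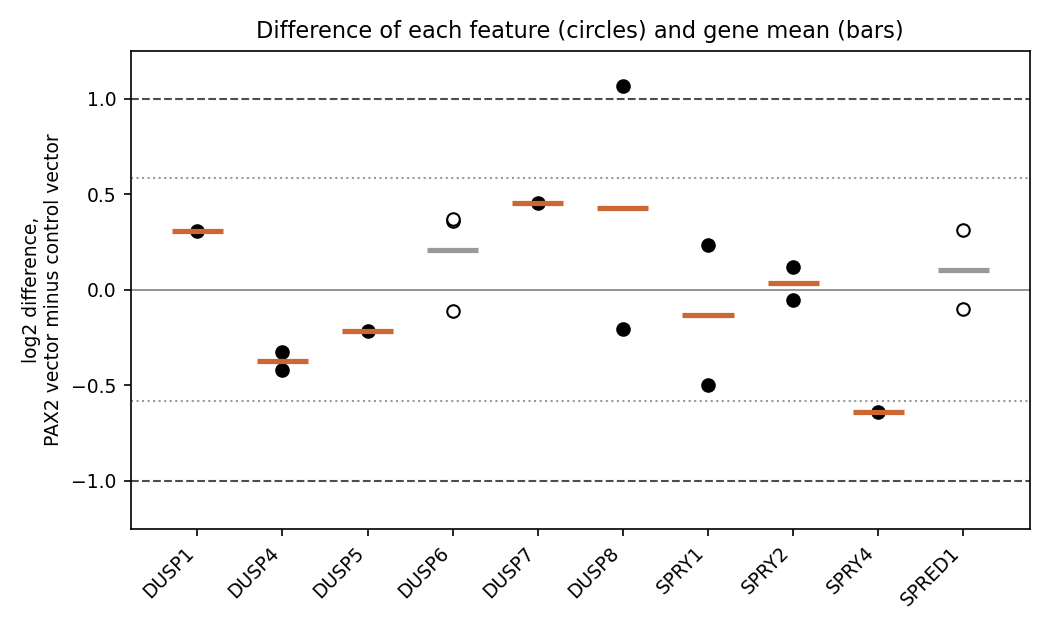
Log2 difference, PAX2 vector minus control vector, of each feature (circles; open where the gene was not measured) and the mean of each gene (bars). Dashed lines mark 2-fold and dotted lines 1.5-fold. BC038231 of DUSP8 is the one circle past 2-fold (1.07), while its partner lies at -0.21, and both features of DUSP4 lie below 0. The SPRY4 value rests on a level inside the range of silent genes on the PAX2 vector array.

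The promoters of DUSP1, DUSP8 and SPRY4 are shown because they belong to the nuclear member with the highest difference, to the gene with the feature past 2-fold, and to the gene with the lowest difference. Each is the 250 bases before the annotated gene start in RefSeq on GRCh38.p14, on the minus strand, which is a different build from the HG18 positions of the features. Capitals mark TGACG, the core of the cyclic AMP response element through which CREB and ATF factors bind, on either strand; cores that overlap as a palindrome form TGACGTCA, the whole element.
DUSP1, chr5:172771196-172771445: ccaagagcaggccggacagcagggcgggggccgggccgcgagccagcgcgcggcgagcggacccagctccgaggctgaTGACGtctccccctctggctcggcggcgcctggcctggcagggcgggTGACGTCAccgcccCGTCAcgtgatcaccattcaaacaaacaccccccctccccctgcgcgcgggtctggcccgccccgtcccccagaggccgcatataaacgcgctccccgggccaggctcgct
DUSP8, chr11:1572272-1572521: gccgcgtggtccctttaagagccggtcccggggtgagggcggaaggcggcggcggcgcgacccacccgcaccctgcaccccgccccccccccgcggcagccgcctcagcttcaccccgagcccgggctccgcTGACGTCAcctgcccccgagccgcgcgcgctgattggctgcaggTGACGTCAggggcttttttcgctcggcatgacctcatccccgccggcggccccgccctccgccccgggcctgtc
SPRY4, chr5:142324248-142324497: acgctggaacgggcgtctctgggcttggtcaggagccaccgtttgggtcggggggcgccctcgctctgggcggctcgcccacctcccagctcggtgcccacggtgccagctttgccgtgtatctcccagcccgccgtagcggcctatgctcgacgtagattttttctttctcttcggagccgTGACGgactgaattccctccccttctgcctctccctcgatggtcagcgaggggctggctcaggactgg

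DUSP8 held 2 whole elements, starting at -118 and -74 from the gene start, and DUSP1 held 1, at -125, with further cores at -172 and -111. SPRY4 held a single core at -68. Windows of 8 of the 10 genes were searched, 11 in all. Member windows on chromosome 8, where DUSP4 lies, were left out of the search, and the promoter table held none for DUSP5. Whether DUSP4 and DUSP5, both lower on the PAX2 vector array, hold either motif was therefore not known. The core was on either strand of 4 of the 11 windows, 1 each of DUSP1, DUSP8, SPRY2 and SPRY4, so every window shown held it. Over all 35116 promoter windows, from which no chromosome was left out, 21.2% held the core and 1.65% the whole element. The search for the whole element was added after the cores had been seen. The ETS factor motif GGAAG, on either strand, was in 7 of the 11 windows and in 65.1% of all. These letters are a description of the sequence. DUSP1 and DUSP8, which hold whole elements, had mean differences of 0.31 and 0.43, the latter from features of 1.07 and -0.21. DUSP7, with the highest mean of 0.45, held neither motif in its window, which is not shown. Whether the motifs bear on the differences was not tested.

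Sprouty proteins block growth factor signals between receptor and RAF. SPRY4, which binds RAF, had the lowest computed difference of the 10 genes. Its 1 feature (NM_030964, HG18 chromosome 5, 141670188 to 141684750) had intensities of 213 on the control vector array and 136 on the PAX2 vector array, a computed log2 difference of -0.64. On the PAX2 vector array it lay just inside the range of silent genes (log2 7.09 against 7.15), so the computed value is uncertain and the fold is given only as a bound, at least 1.498-fold lower. The SD of the difference was 0.69 among equally bright features, larger than the computed SPRY4 value.

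SPRY1, an inhibitor of FGF receptor signalling, had features that pointed opposite ways. NM_005841 (HG18 chromosome 4, 124540132 to 124544360) had 343 and 243, a log2 difference of -0.50, and NM_199327 (124537405 to 124544357) had 178 and 209, a difference of 0.23. The mean was -0.13. A gap of this size or more, 0.73, was found in 9.80% of the measured genes with 2 features.

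SPRY2, which binds the ubiquitin ligase CBL, was nearly level between the arrays. BC004205 (HG18 chromosome 13, 79808307 to 79810973) had 315 and 342, and NM_005842 (79808111 to 79813087) had 136 and 131. The mean difference was 0.03, and it was below 0 after centring (-0.0017), quantile normalization (-0.011) or loess (-0.023). SPRY2 and SPRY4 both lay near the filter, in deciles of brightness where the SD of the difference was 0.50 and 0.69.

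SPRED1 recruits neurofibromin to the membrane to switch RAS off. AY299089 (HG18 chromosome 15, 36332346 to 36431583) had intensities of 58.6 and 72.7, and NM_152594 (36331807 to 36433533) had 26.4 and 24.6. Both features were in the range of silent genes on both arrays, so no fold is given. NM_152594 was 1.28 times as bright as the random-sequence probes on either array.

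**Figure D3:**
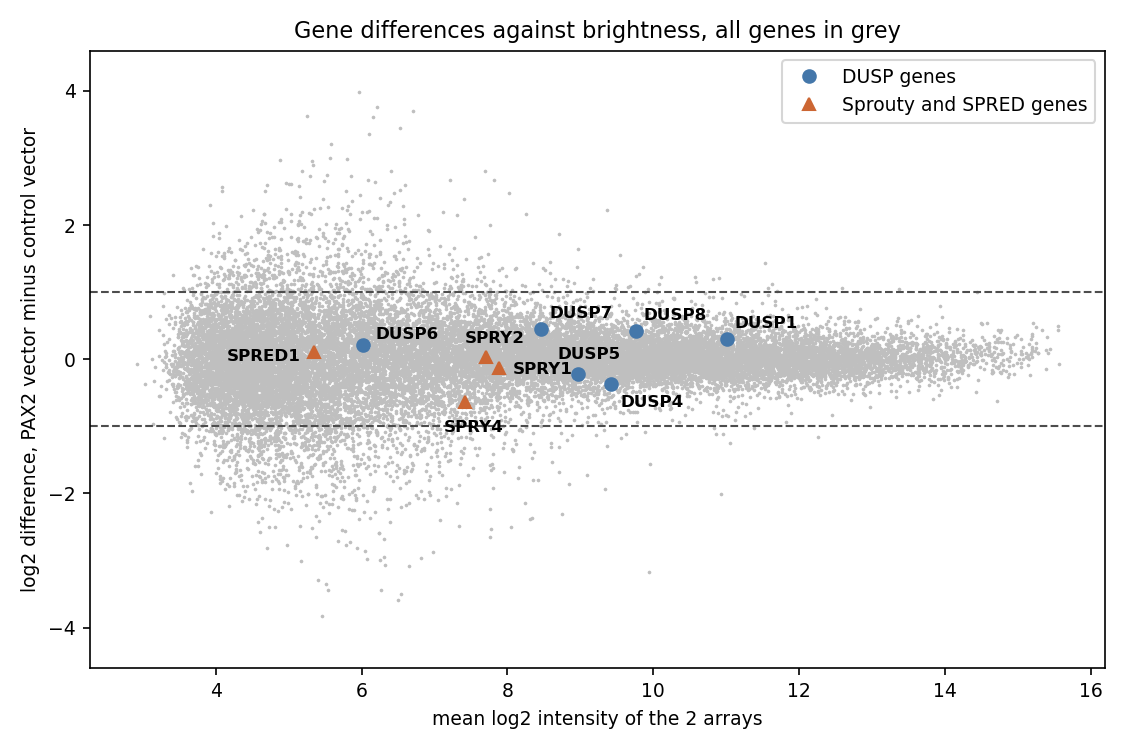
Mean log2 intensity of both arrays against the log2 difference for all 23595 genes (grey), the DUSP genes (circles) and the Sprouty and SPRED genes (triangles). Dashed lines mark 2-fold. All 10 named genes lie between the dashed lines, and the grey cloud is wider at low brightness, where SPRED1 and DUSP6 lie.

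Set against the scatter of the array, the 17 features together did not stand apart. A difference larger than the SD of its decile of brightness was found in 4 of the 17 features, the one of DUSP1, both of DUSP4 and BC038231 of DUSP8. Over all 45033 features 26.7% passed the same limit. The SD fell with brightness from 0.93 in decile 3 to 0.25 in decile 10, the brightest. This spread is over features of 2 arrays and cannot be split into culture, hybridisation and condition. Of the 6 genes with several features, 5 had features of opposite sign, among them DUSP6 and SPRED1 in the range of silent genes. Of the measured members with 2 features, DUSP8, SPRY1 and SPRY2 had opposite signs and DUSP4 did not. Opposite signs were found in 41.5% of all 3898 measured genes with 2 features.

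The other genes of the pathway were grouped in 8 lists of 101 genes, of which 74 were measured. None of the 74 differed 2-fold, against 2.29% of all measured genes, and 3 (4.05%) differed 1.5-fold, against 7.72%. Of the 74, 46 were above 0 and 27 below, and their median was 0.09. The median over all measured genes was 0.02, or -0.01 after centring on the array medians. The share of all measured genes above 0 was not counted, so the counts above 0 here and below have no background beside them. Of the 4 other MAP kinase phosphatases all were measured and 3 were above 0 (median 0.22). DUSP16, a phosphatase of JNK, had the largest difference, with a mean log2 level of 8.26 on the control vector array and 8.67 on the PAX2 vector array (0.41, from 0.20 to 0.65 over 3 features). Of 14 atypical dual-specificity phosphatases, which lack the MAP kinase docking domain, 6 were measured, with a median of -0.07 and the largest difference in DUSP3 (0.20). Of SPRY3, SPRED2 and SPRED3 only SPRED2 was measured (-0.13). With no filter the median of the 3 was 0.50, but SPRY3 and SPRED3 were in the range of silent genes on both arrays.

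Upstream, 13 of 17 receptors and adaptors were measured, 10 of them above 0, with a median of 0.20. The receptor tyrosine kinase ERBB2 had the largest difference, 0.58, with 0.42 to 0.71 over its 3 features. Of the 14 genes of the ERK cascade 13 were measured (median 0.12, 9 above 0), and RASA1, a RAS GTPase-activating protein, had 0.63 in 1 feature. Of the 15 genes of the p38 and JNK cascade 10 were measured (median 0.05), and MAP2K6, an activator of p38, had a mean of 0.58 that ranged from -0.11 to 1.59 over its 3 features.

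Downstream, 11 of 13 kinases and factors were measured (median 0.11, and -0.01 with the brightest feature of each gene), with the largest difference in RPS6KA4 (MSK2), a kinase of CREB and histone H3, at 0.60 (0.54 and 0.65 in its 2 features). Of 21 other ERK-responsive genes 16 were measured, 8 above 0 and 7 below, with a median of 0.02, or -0.22 with the filter at the 75th percentile. The cytokine LIF had the largest difference among the measured genes of this list, a mean of 0.65 made of -0.16 and 1.46. Hence neither the feedback inhibitors nor the other ERK-responsive genes had a common direction on these arrays.

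**Figure D4:**
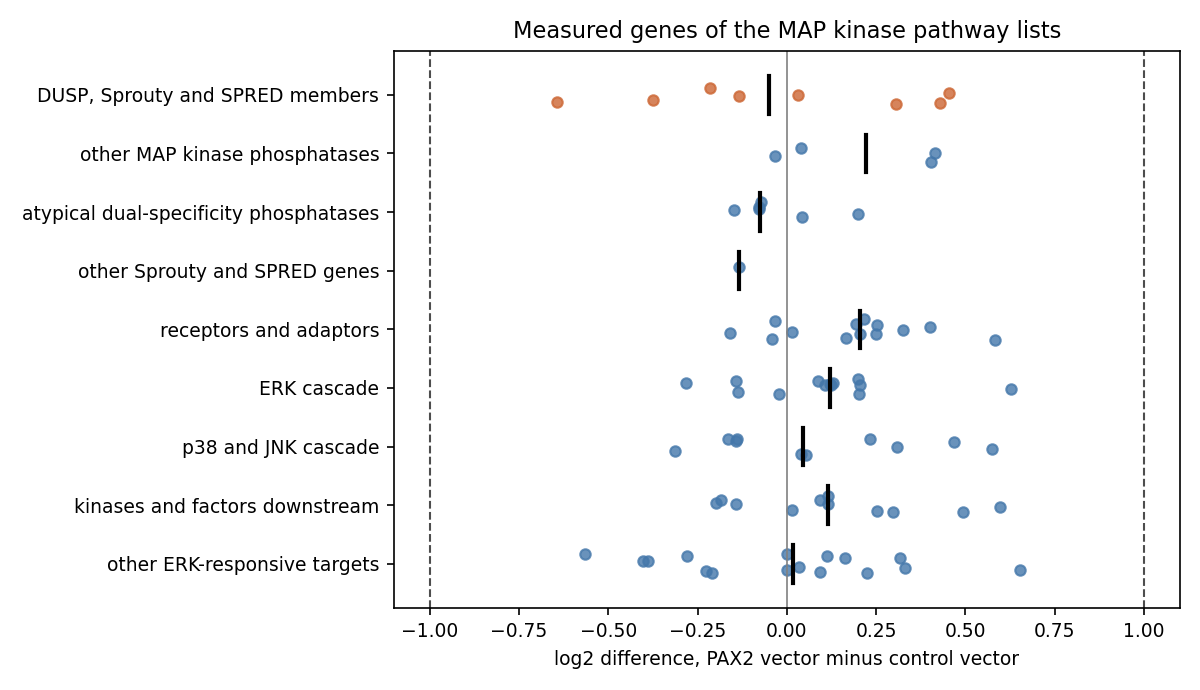
Log2 difference of the measured feedback inhibitors (top row) and of the measured genes of the 8 pathway lists, 1 point per gene; black bars are medians and dashed lines mark 2-fold. No point lies past 2-fold, and the row of the feedback inhibitors spans computed values of -0.64 (SPRY4, no brighter than silent genes on the PAX2 vector array) to 0.45 around a median of -0.05.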

How the data were processed

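Each group is 1 single-colour Cy3 NimbleGen array. Per the submitters' processing notes the authors used RMA; no source at hand names its version or between-array step. The deposited intensities are linear and identical in the series table. Per the file headers 45031 of 45033 features hold 3 probes, and positions are on HG18. The intensities were taken to log2 with no pseudocount or further normalization, and features of a gene were averaged over 42947 features with a gene identifier; 2086 features without one were left out. Symbols follow RefSeq (GRCh38.p14), matched by identifier.

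The members and lists were chosen with earlier results of these data known. Named are all 10 members, PAX2 and, per pathway list, measured genes past 2-fold (at most 3 each way) or else the one with the largest difference. Alternatives were loess (fraction 0.3), quantile normalization, centring, the series table, the brightest feature, an offset of 64, other filters and thresholds of 1.5-fold and 3-fold. A comparison of the members' proteins was not made here. The counting was tested on simulated data, only with added differences larger than that of any of the 10 genes, so smaller differences were not covered. Python 3.11.15, numpy 2.4.6, pandas 2.3.3 and statsmodels 0.14.6 were used.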

Additional observations from a re-analysis of the deposited data

How the results depend on the processing

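No paired analysis was possible because there was only 1 array per group. Of 46 recomputed differences of the 10 genes that could move (the series table and the brightest feature of a 1-feature gene cannot), 44 moved by less than 0.31, the SD attributable to a single feature. Centring shifts every gene by the same amount (DUSP1 from 0.31 to 0.27), so it could not pass this limit. SPRY2 changed sign within the limit, and SPRED1 went from 0.10 to 0.31 with its brightest feature. The limit is thus wide beside several of these differences. The 2 differences that moved further came with the brightest feature of a gene, by construction a single feature: DUSP8 was then at 1.07 and SPRY1 at -0.50. That setting and the 1.5-fold threshold each gave 1 gene past the threshold in place of 0 (DUSP8, and SPRY4 by its computed value, whose bound of 1.498-fold stays below 1.5-fold). The median of -0.05 became 0.068 with no filter, when DUSP6 and SPRED1 enter, and 0.31 with the filter at the 75th percentile, which leaves DUSP1 alone. The 266 genes past 2-fold became 477 with the brightest feature, 159 with the offset, 1715 with no filter, 32 with the 75th percentile filter, 898 at 1.5-fold and 83 at 3-fold. Among alternatives chosen after seeing the data, leaving pseudogenes out of the olfactory receptor genes put the silent range on the PAX2 vector array at log2 6.90, below SPRY4, whose fold would then be 1.56. MAP2K6 (-0.11) and LIF (-0.16) had the opposite sign in their brightest feature. For list medians the limit was the single-feature SD of 0.31 divided by the square root of the number of measured genes in the list. Centring shifts all list medians by the same amount, which is below the limit of every list. Of 55 list medians that could move 50 moved by less than this limit. The others were 0.40 (other MAP kinase phosphatases) and -0.22 (ERK-responsive genes) with the 75th percentile filter, 1.09 and 0.50 (other Sprouty and SPRED genes) with the brightest feature and no filter, and -0.01 (downstream kinases) with the brightest feature. The 1.09 rests on SPRED2 (-0.13) and 1 feature of SPRED3 (2.31), and the 0.50 of the same list is the value of SPRY3. Mean levels of SPRY3 and SPRED3 were in the range of silent genes on both arrays. Low signal over background limits DUSP6, SPRED1, SPRY2 and SPRY4.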

Other observations

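The values in this part were chosen after they were seen, and no explanation was tested. Among the 16 measured ERK-responsive genes, 7 lay below 0 and 8 above it. The ETS factors ETV4 and ETV5, which switch on growth factor programmes, lay below 0, as did FOSL1 (-0.22) and MYC (-0.21). ETV4 had a log2 difference of -0.40 in 1 bright feature. ETV5 had -0.57, with -1.003 and -0.13 in its 2 features. PLAUR, the urokinase receptor, had -0.28 (from -0.33 to -0.23 over 3 features) and IER3 -0.39 (from -0.57 to -0.27 over 3 features). LIF had 0.65, the largest difference among the measured genes of the list, from features of -0.16 and 1.46. PHLDA1 had 0.32 (from -0.02 to 0.57 over 3 features) and MCL1, an anti-apoptotic factor, 0.33 (from 0.23 to 0.51 over 3 features). The cyclin CCND1 had 0.16 (0.002 and 0.33 in its 2 features). The feedback phosphatases also lay on both sides of 0, with DUSP4 at -0.37, DUSP5 at -0.22, DUSP1 at 0.31 and DUSP7 at 0.45. DUSP8 had a mean of 0.43 from features of -0.21 and 1.07.

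EGR1, an immediate early zinc finger factor, was below the filter on both arrays and in the range of silent genes on the control vector array. Its features had differences of 1.07 and 1.24, and only a bound can be given, at least 1.44-fold higher. DUSP9, a cytoplasmic ERK phosphatase, had a difference of 0.40 in 1 feature, close to the 0.45 of DUSP7.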
